A study of Mus musculus with 6 samples.

Results

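The metallothionein genes Mt1 and Mt2 and the zinc transporters of the Slc30a and Slc39a families were followed in embryonic pancreas with and without the transcription factor Sox4. Probes were taken where the platform annotation gave a single symbol, Mt1 or Mt2, or a symbol starting with Slc30a or Slc39a and a digit. This found 21 probes of 12 genes among 21888 probes in all. They comprised 3 probes of Mt1, 1 probe of Mt2, 4 probes of 3 Slc30a genes and 13 probes of 7 Slc39a genes. The families were selected on measured values: the mean ratios of Mt1 and Mt2 over these 6 arrays were known to lie far under 0. The ratios of all members are therefore given as a description, with no test and no p-value, and the calls counted below for member probes support nothing.

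Each of 6 arrays carried RNA of Sox4-/- (knockout, KO) pancreas in channel 2 and RNA of pancreas from wild-type (WT) littermates in channel 1, both at embryonic day 12.5. The sources used here do not state strain, sex or number of embryos. Homozygous KO pancreases and WT pancreases were each pooled before extraction, as the text on arrays 1 and 2 says. The arrays could therefore repeat 1 pool of each genotype, and p-values then measure a spread that may be technical. Because each genotype kept its channel, a channel bias of a probe cannot be told apart from genotype. Values are log2 ratios after each array was centred on its median. They are read as KO over WT, which is likely from the channel order and the titles but not settled, since no source used here names the dyes or the direction. If the direction were opposite, every sign below would turn.

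Metallothioneins are small, cysteine-rich proteins that bind zinc and copper in the cytosol. Their genes are switched on by the zinc-sensing transcription factor Mtf1, which binds short DNA motifs called metal response elements, and also by glucocorticoids and other stress signals. Slc30a proteins (also called ZnT) move zinc out of the cytosol, across the cell membrane or into organelles, and Slc39a proteins (also called ZIP) bring zinc into the cytosol. In the pancreas, zinc is stored with insulin and is secreted with digestive enzymes.

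Mt1 and Mt2 follow each other on chromosome 8 with no other gene between them in the RefSeq gene table. Their promoter windows, 250 bases before to 50 after the gene start, are shown because Mt1 and Mt2 lay on the same side of 0 on every array. The sequences are from RefSeq (build GRCm38.p6), 5′ to 3′ on the plus strand, at chr8:94178839-94179138 for Mt1 and chr8:94172368-94172667 for Mt2. Capitals mark matches to the metal response element core, searched as TGCACNC and TGCGCNC on both strands.
Mt1: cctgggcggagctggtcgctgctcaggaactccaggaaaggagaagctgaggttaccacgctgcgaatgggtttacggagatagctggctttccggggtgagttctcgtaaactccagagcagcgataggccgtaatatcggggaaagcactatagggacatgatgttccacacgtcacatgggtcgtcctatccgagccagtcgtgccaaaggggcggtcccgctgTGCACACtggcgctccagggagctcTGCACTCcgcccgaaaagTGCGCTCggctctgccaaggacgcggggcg
Mt2: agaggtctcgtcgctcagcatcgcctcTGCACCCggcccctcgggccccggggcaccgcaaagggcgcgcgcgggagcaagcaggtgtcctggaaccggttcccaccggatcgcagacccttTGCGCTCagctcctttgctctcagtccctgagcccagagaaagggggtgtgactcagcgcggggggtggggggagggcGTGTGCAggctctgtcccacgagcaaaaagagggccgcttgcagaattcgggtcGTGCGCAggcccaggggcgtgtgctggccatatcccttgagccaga

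Positions are counted from the gene start in RefSeq, where 1 is that start and -1 the base before it. Whether transcription begins there in this tissue was not tested. Cores outside the windows were not searched, so the counts are not totals for either promoter. The Mt1 window held 3 cores, all read along the gene, starting at positions -23, 3 and 21. The Mt2 window held 4 cores, with 2 along the gene starting at -223 and -128, and 2 on the opposite strand that span -50 to -44 and 5 to 11. No cores overlapped. Of 32851 windows of the same length in the RefSeq table, 25.7% held at least 1 core, 1.97% at least 3 and 0.517% at least 4. Windows were found for 9 of the 10 transporter genes. Among their 13 windows, 6 held 1 core and the others none, with the cores in Slc30a5, Slc39a5, Slc39a8, Slc39a11 and Slc39a13.

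**Figure D1:**
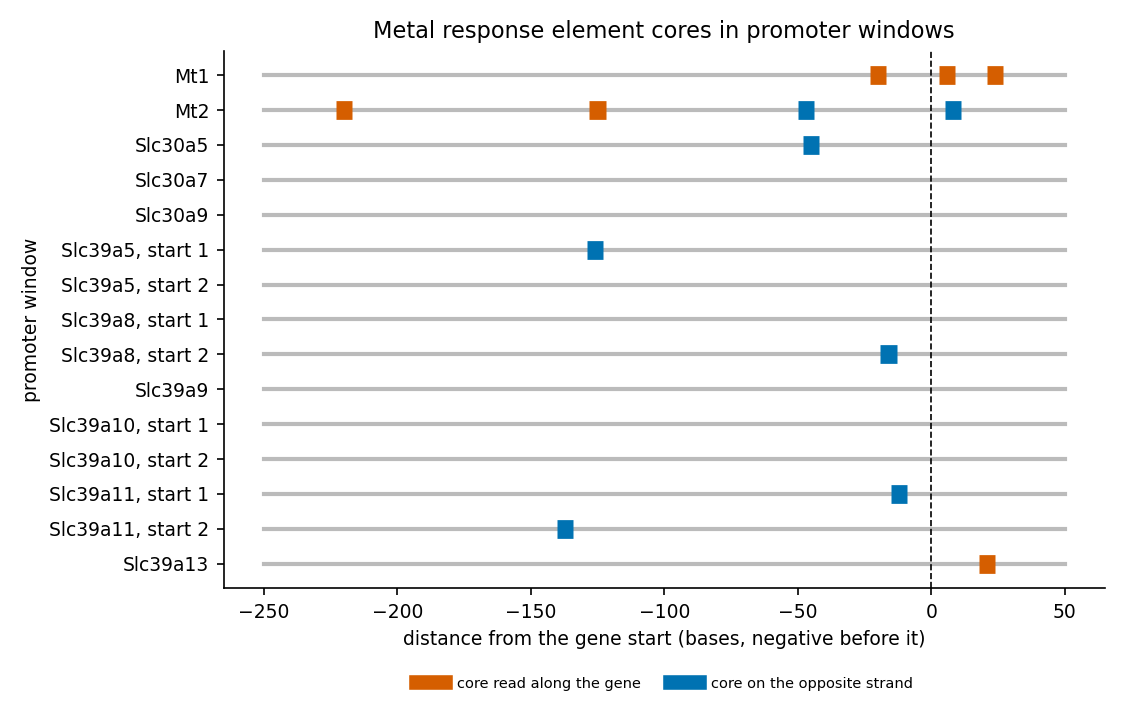
Positions of metal response element cores in the promoter windows of Mt1, Mt2 and 9 zinc transporter genes, in bases from the gene start. The gene start is that in RefSeq. Orange blocks are cores read along the gene and blue blocks are cores on the opposite strand. The Mt1 window has 3 and the Mt2 window has 4, and each transporter window has 1 or none.

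Mt2, a metallothionein found in most tissues, had the lowest mean among the 21 probes. Its single probe, ZA-00025A23, had log2 ratios of -1.14, -1.43, -1.12, -1.24, -1.19 and -1.30 on arrays 1 to 6. All 6 arrays lay close together, and the mean of -1.24 ± 0.12 (SD, n = 6 arrays) is a 2.36-fold lower ratio in the RNA labelled KO. Its SD was small for this data set, since 5.98% of 21247 tested probes had an SD as small or smaller, and the median SD was 0.29.

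Mt1 was under 0 at all 3 of its probes, but by different amounts. Probe ZA-00024K12 had ratios of -1.13, -0.56, -1.54, -0.65, -1.12 and -1.32 on arrays 1 to 6, with a mean of -1.05 ± 0.38 (SD, n = 6), a 2.07-fold lower ratio. Probe ZX-00126D02 had -1.07, -0.26, -1.38, -1.12, -1.09 and -1.15, with a mean of -1.01 ± 0.39 (SD, n = 6). On both probes array 3 was the furthest under 0 and array 2 the nearest to it. The remaining probe, ZX-00135J15, had -0.52, -0.40, -0.25, -0.53, -0.35 and -0.33, with a mean of -0.40 ± 0.11 (SD, n = 6), a 1.32-fold lower ratio. This probe did not follow the others: array 3, the lowest on both of them, was its highest. The highest and lowest means of the Mt1 probes were 0.66 apart in log2, and every array of ZX-00135J15 lay above the means of the other Mt1 probes.

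The 2 genes also differed on array 2. There the Mt2 probe had its lowest ratio, at -1.43, while the Mt1 probes ZA-00024K12 and ZX-00126D02 had their highest, at -0.56 and -0.26. Without array 2, ZX-00126D02 ranged from -1.38 to -1.07 with a mean of -1.16, ZA-00024K12 had a mean of -1.15 and Mt2 a mean of -1.20. On arrays 1 and 2 alone the means were -0.85 for ZA-00024K12, -0.66 for ZX-00126D02 and -1.29 for Mt2, and on arrays 3 to 6 alone they were -1.16, -1.19 and -1.21. The label of arrays 1 and 2 describes the sample preparation and that of arrays 3 to 6 does not, which is the only difference between these sets in the labels.

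**Figure D2:**
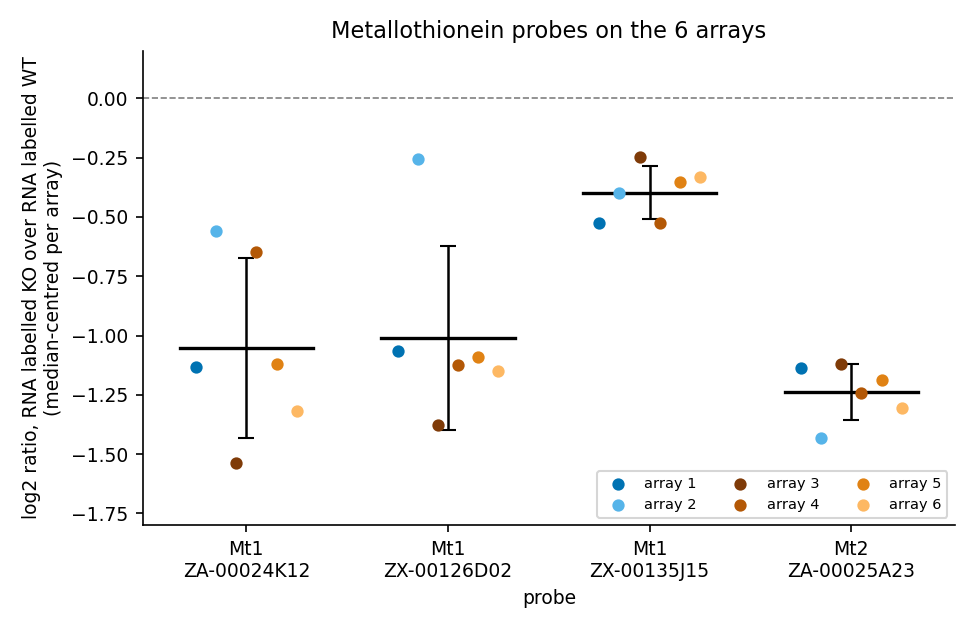
Log2 ratio (KO over WT, median-centred) of each metallothionein probe on arrays 1 to 6, 1 point per array, with the mean as a line and the SD as a bar. Every point lies under 0; the Mt2 probe is between -1.43 and -1.12, and the Mt1 probe ZX-00135J15 is at -0.53 or above.

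The probes spotted from the wells next to each metallothionein probe on the source plates had means of smaller size. The metallothioneins were chosen with their low means known, so nothing about spotting is read from this. The 8 neighbouring probes, named Hsbp1, Igfbp7, Ccdc91, Cuta, Elp5, Wdr89, Fas and Dnajc15, had means from -0.32 (Fas, a death receptor) to 0.04 (Elp5, a subunit of a tRNA-modifying complex). The Igfbp7 probe had values on 3 arrays, with an SD of 1.19 around its mean of -0.04, and was not tested. Where signals are small whole numbers, their ratios are quotients of such numbers. At the 4 metallothionein probes 0% to 16.7% of values were quotients of whole numbers up to 20, against 22.6% over all tested probes.

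Probes measured on 4 or more arrays were fitted together with limma, 21247 in all, each mean being tested against 0. At a Benjamini-Hochberg adjusted p under 0.05, 1166 probes or 5.49% passed, 3.53% with a mean under 0 and 1.96% with a mean above 0. All 21 probes of the set were tested, and 6 passed, all under 0: the 4 metallothionein probes, 1 of Slc30a7 and 1 of Slc39a4. The rule was chosen with this contrast in view, so nothing is read from that count. The same holds for the 11 member probes with an unadjusted limma p under 0.05, which 27.6% of tested probes reached. Mt2 ranked 66 from the lowest mean of all tested probes, and the Mt1 probes ranked 108, 120 and 1270. A mean of -1 or under was found at 0.588% of tested probes. Without array 1, 2, 3, 4, 5 or 6 the fit called 18, 1072, 45, 11, 10 or 13 probes in all. The Mt2 probe passed in each of these 6 fits. The Mt1, Slc30a7 and Slc39a4 probes passed in the one without array 2. Nothing is read from these passes either, since the rule was chosen with these arrays in view.

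**Figure D3:**
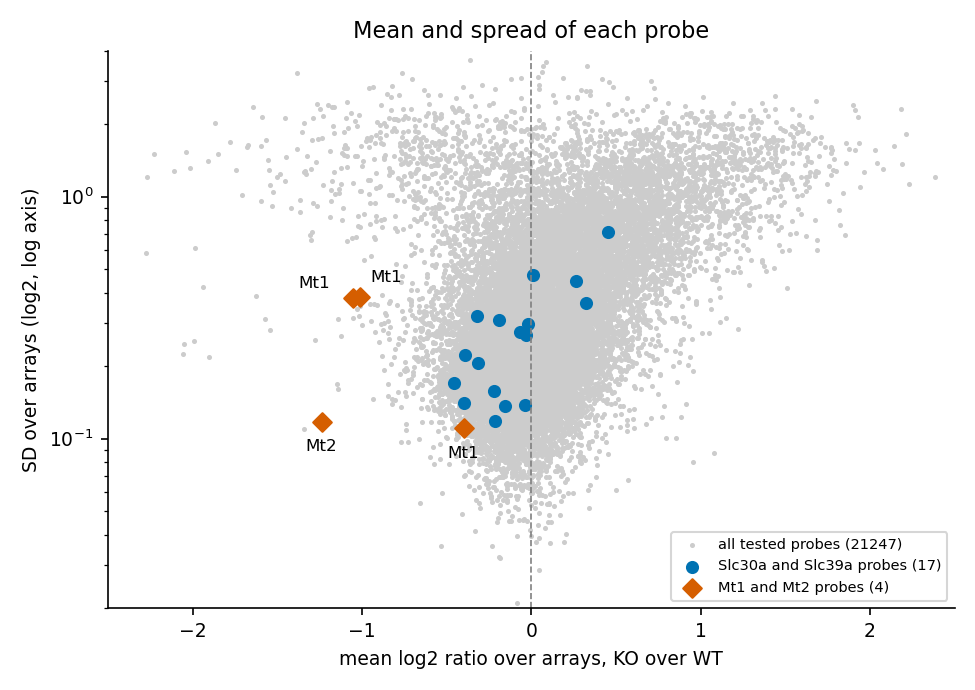
Mean log2 ratio (KO over WT) against its SD over arrays, on a log axis, for 21247 tested probes in grey, 17 zinc transporter probes in blue and 4 metallothionein probes in orange; 1 tested probe lies outside the axes. The Mt2 probe, at -1.24 with an SD of 0.12, lies far under 0 with a small spread, and the transporters lie between -0.45 and 0.46.

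Zinc transporters lay nearer to 0 than Mt2, with means from -0.45 to 0.46 over 17 probes. The median of probe means was -0.10 for Slc30a and -0.19 for Slc39a, beside -1.03 for the metallothioneins and 0.03 for all tested probes. Means were under 0 at 3 of 4 Slc30a probes and 10 of 13 Slc39a probes, while 46.3% of all tested probes had a mean under 0. Among the 19 member probes with 6 values, 10 were under 0 on every array, 4 of them metallothioneins, against 13.8% of all probes with 6 values. For the transporters alone it was 6 of 15 probes. No member probe was above 0 on every array, against 8.57% of all such probes. The members were chosen with these values known, so nothing is read from these shares. The directions of the member probes also lean on the centring. With no centring, or with quantile normalization, the median probe moved up by 0.10 in log2, and 13 of the 21 member probes stayed under 0, against 17 with centring. The metallothionein probes stayed under 0 under both.

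Among the transporters that bring zinc into the cytosol, Slc39a4 had the lowest mean. It encodes ZIP4, which takes up dietary zinc in the intestine. Its probe had -0.24, -0.68, -0.59, -0.28, -0.46 and -0.48 on arrays 1 to 6, with a mean of -0.45 ± 0.17 (SD, n = 6), a 1.37-fold lower ratio. All arrays were under 0, and those of the 2 label sets overlapped, with means of -0.46 on arrays 1 and 2 and -0.45 on arrays 3 to 6. Slc39a13 encodes ZIP13, which is needed in connective tissue. Its probe had -0.20, -0.67, -0.31, -0.20, -0.29 and -0.67, with a mean of -0.39 ± 0.22 (SD, n = 6). It was under 0 throughout, with arrays 2 and 6 apart from the rest.

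Slc39a5 encodes ZIP5, which sits on the basolateral membrane of intestinal and pancreatic acinar cells. Its probe ZX-00128C05 was under 0 on all arrays, with a mean of -0.21 ± 0.12 (SD, n = 6). Its probe ZX-00125M15 had -0.34, -0.65, 0.43, -0.20, 0.48 and 0.34, with a mean of 0.01 ± 0.47 (SD, n = 6). This second probe was split between arrays 1, 2 and 4 under 0 and arrays 3, 5 and 6 above it, with means of -0.49 on arrays 1 and 2 and 0.26 on arrays 3 to 6. The Slc39a10 probes, for a zinc importer of the cell membrane, had means of -0.32 ± 0.32 and -0.19 ± 0.31, each with arrays on both sides of 0. The Slc39a11 probe was at -0.31 ± 0.20, with 5 of 6 arrays under 0 and 50% of its values quotients of small whole numbers. Its mean was -0.08 on arrays 1 and 2 and -0.43 on arrays 3 to 6. It stands in the same source plate as the Mt1 probe ZX-00126D02, with the Cuta probe between them at -0.03.

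Slc39a8 encodes ZIP8, a carrier of zinc and manganese, and it was the one importer with both probes above 0. Probe PX-00617H12 had 1.18, 1.27, -0.66, 0.13, 0.32 and 0.48, with a mean of 0.46 ± 0.72 (SD, n = 6). Arrays 1 and 2 stood above the rest and array 3 was under 0, so the mean was 1.23 on arrays 1 and 2 and 0.07 on arrays 3 to 6. Probe PX-00624C03 had values on arrays 2 to 5 of 0.55, -0.40, 0.51 and 0.39, a mean of 0.26 ± 0.45 (SD, n = 4), and it stood at the table's ceiling on array 6. Quotients of small whole numbers made up 75% of its values.

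Slc39a9 encodes ZIP9, a transporter of the Golgi and cell membrane, and had the most probes of any member. Its 4 probes had means of -0.22 ± 0.16, -0.07 ± 0.28, -0.03 ± 0.27 and -0.02 ± 0.30 (SD, n = 6 each). Only ZX-00126H24, the lowest of them, had all of its arrays under 0. The others differed in sign between the label sets. PX-00617G06 was at 0.24 on arrays 1 and 2 and -0.17 on arrays 3 to 6, ZX-00138L14 at 0.21 and -0.21, and PX-00617E12 at -0.16 and 0.05.

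Among the exporters, Slc30a7 encodes ZnT7, which loads zinc into the Golgi. Its probe ZX-00132D21 had -0.26, -0.28, -0.49, -0.37, -0.36 and -0.63, with a mean of -0.40 ± 0.14 (SD, n = 6). Quotients of small whole numbers made up 50% of the values of this probe. The other Slc30a7 probe, ZX-00126B01, had -0.25, -0.02, -0.07, -0.38, -0.06 and -0.16, with a mean of -0.15 ± 0.14 (SD, n = 6). Both were under 0 on all arrays although their ranges overlapped, and the annotation lists a shared cDNA for them. Slc30a5, for ZnT5 of the secretory pathway, was at -0.04 ± 0.14 with 3 arrays on each side of 0. Slc30a9, for ZnT9 of mitochondria, was at 0.32 ± 0.36 (SD, n = 5), with array 3 at -0.31 and the others from 0.37 to 0.61. Of its values 80% were quotients of small whole numbers.

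**Figure D4:**
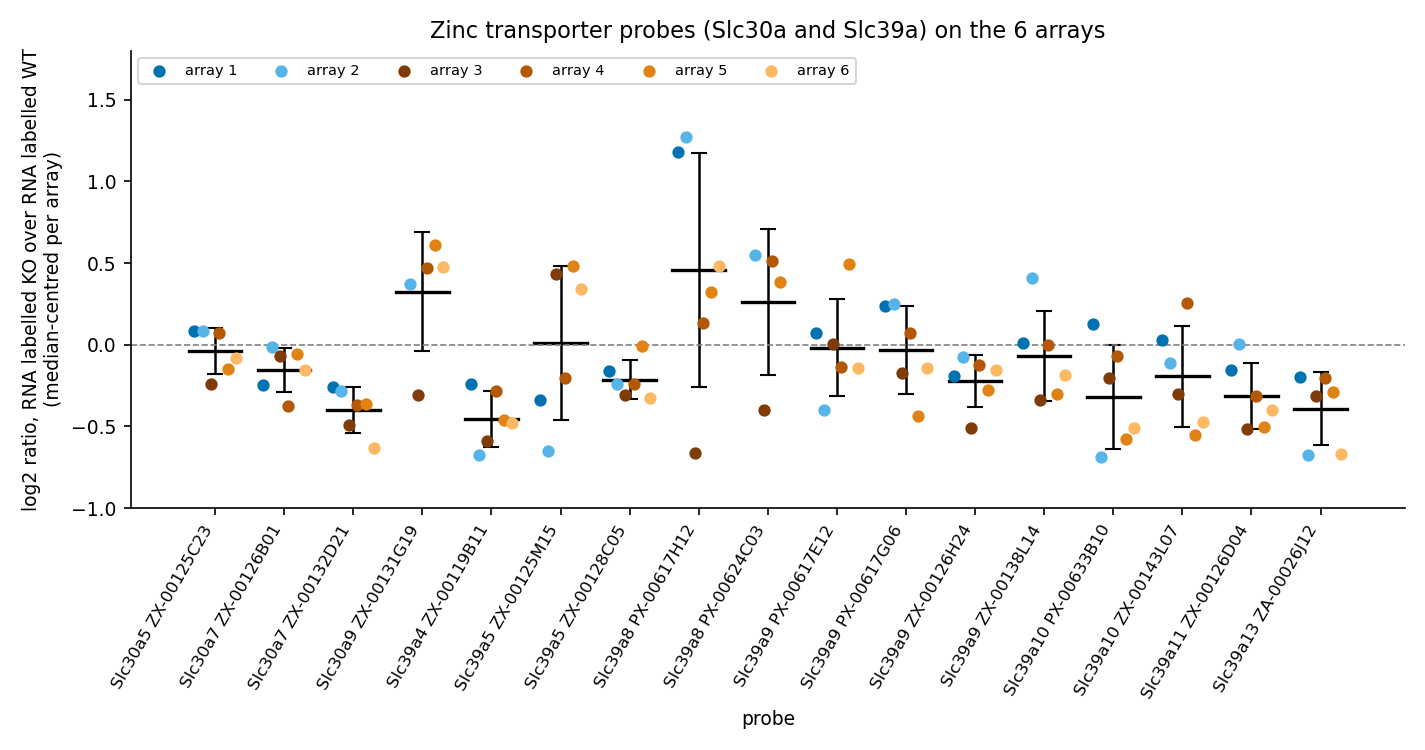
Log2 ratio (KO over WT, median-centred) of 17 Slc30a and Slc39a probes on arrays 1 to 6, 1 point per array, with the mean as a line and the SD as a bar. Slc39a4 is under 0 on all 6 arrays, whereas Slc39a8 probe PX-00617H12 runs from -0.66 to 1.27.

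Genes of metal handling and stress outside the set were counted in the same fit, a gene passing where at least 1 of its probes had an adjusted p under 0.05. These lists were chosen with earlier results of these data known, so their counts and p-values are a description and support nothing. Over 10818 tested genes, 5.00% passed under 0 and 3.25% above 0, and the median of gene means was 0.05. In the metal and redox response list, 1 of 10 measured genes passed under 0 and 2 above 0, with a median of 0.27. Prdx1, a peroxidase that removes hydrogen peroxide, passed at 1 of 3 probes, which had -0.43 ± 0.15 (SD, n = 6; limma adjusted p 0.0366), with the others at -0.34 and -0.21. Txnrd1, a thioredoxin reductase, was at 0.37 ± 0.15 (adjusted p 0.0470) at the probe that passed and 1.03 ± 1.09 at its other probe. Gpx1, a glutathione peroxidase, was at 0.48 ± 0.26 (adjusted p 0.0497) at 1 of 3 probes, with the others at 0.09 and -0.04. The Gpx1 call was lost with no filter on missing values, the ceiling kept, array weights, robust eBayes or the label set as a term (limma adjusted p 0.0520 to 0.0575) and on arrays 3 to 6 alone (0.104). Prdx1 lost its call with the label set as a term (0.0506) and Txnrd1 on arrays 3 to 6 alone (0.0811). The metal sensor Mtf1 did not pass, at -0.21 ± 0.21 (SD, n = 6; limma adjusted p 0.191), with all 6 arrays under 0.

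In copper handling, 1 of 7 measured genes passed on each side, with a median of 0.01. Cp, the copper-carrying ferroxidase ceruloplasmin, was at 0.57 ± 0.20 and 0.56 ± 0.23 at its 2 probes (SD, n = 6; limma adjusted p 0.0302 and 0.0357), with all arrays above 0. At the latter probe 50% of values were quotients of small whole numbers. Slc31a2, a copper transporter, was at -0.43 ± 0.10 and -0.41 ± 0.13 at 2 of 4 probes (limma adjusted p 0.0302 and 0.0360), with the others at -0.06 and 0.94. None of 5 iron handling genes passed the limma fit, and 3 had an unadjusted p under 0.05, against 37.0% of all tested genes. The smallest p in that list was that of Ftl1, the ferritin light chain, at 0.45 ± 0.25 (limma adjusted p 0.0548), and all of its 7 probes had means above 0. It passed without centring, with quantile normalization, among probes with all 6 values and without probes of mostly quotients (limma adjusted p 0.0299 to 0.0495). The list median was 0.02.

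None of 3 measured glucocorticoid response genes passed, although each had an unadjusted limma p under 0.05, as had 37.0% of all tested genes. Fkbp5, a chaperone induced by glucocorticoids, was at 0.46 ± 0.30 (SD, n = 6; limma adjusted p 0.0694), with all 6 arrays above 0, and the median of the list was 0.46. It passed with no centring, with quantile normalization and with array weights, at adjusted p down to 0.0246. In the hypoxia response list, 3 of 9 measured genes passed under 0 and none above 0, with a median of -0.20. The mitochondrial protein gene Bnip3, which low oxygen induces, had means of -1.15 ± 0.17 and -0.95 ± 0.36 (SD, n = 6; limma adjusted p 0.00597 and 0.0288). Tpi1, of glycolysis, was past the threshold at 3 of 4 probes, the lowest at -0.48 ± 0.14 (limma adjusted p 0.0302), and Ankrd37 at 1 of 2, at -0.32 ± 0.10 (adjusted p 0.0457). The Ankrd37 call was lost without centring (limma adjusted p 0.0983), with quantile normalization (0.0836), with the label set as a term (0.0594) and on arrays 3 to 6 alone (0.0583). Over these lists 8 genes passed in all. With any of arrays 1, 3, 4, 5 or 6 left out, 1 gene passed, which was Bnip3 each time, and without array 2 there were 8, with Tsc22d3 and Txn1 in place of Gpx1 and Txnrd1.

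Marker genes of other cell types were read beside the metallothioneins. Their lists too were chosen with earlier results of these data known, so nothing is read from their counts or p-values. Fetal liver is rich in metallothionein, and of 9 measured liver genes 5 passed under 0 and none above 0, with a median of -0.50 and list medians of -0.77 to -0.36 on single arrays. Afp, made by fetal liver, was at -2.06 ± 0.22 at its lowest probe (SD, n = 6; limma adjusted p 0.00141), Fgg and Fgb, of fibrinogen, at -1.14 ± 0.31 and -1.12 ± 0.26 (0.0193 and 0.0127), and Ambp, a plasma protein, at -0.77 ± 0.10 (0.0126). Vtn, for vitronectin, was the other gene that passed, at -0.94 ± 0.31 (0.0239), while a further Afp probe was at 0.01 ± 0.35 and a further Vtn probe at -0.06 ± 0.38. Quotients of small whole numbers made up 50% of the Fgg values. Alb, for albumin, was at -0.29 ± 0.12 and did not pass (limma adjusted p 0.0622). The other measured liver genes did not pass either. Ttr was at -0.18 ± 0.23 and -0.21 ± 0.31 at its probes, Hpx at 0.03 ± 0.35 and Apoh at 0.08 ± 0.42. Without array 1, 3, 4, 5 or 6 the liver genes that passed numbered 1, 2, 1, 1 or 2, with Afp among them each time, and 6 passed without array 2. The ratios hold no levels, so whether any marker is near 0, or whether the tissue is the one labelled, could not be checked, and fewer cells of a type cannot be told apart from less RNA per cell. The part of liver RNA in the Mt1 and Mt2 ratios was not tested.

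Acinar cells also express metallothioneins and Slc39a5. Of 10 measured acinar genes, 4 passed under 0 and none above 0, with a median of -0.05. By gene mean, 6 of the 10 were under 0, while Amy2, Prss2, Cel and Rnase1 were above it, by up to 0.46 (Amy2). The list has 42 probes for these 10 genes, and more probes give a gene more chances to pass. Its share is therefore not like that over all genes. Spink1, a trypsin inhibitor, was at -0.82 ± 0.14 (SD, n = 6; limma adjusted p 0.0126) at one probe, its other probe being at -0.26. Clps, Cpa1 and Pla2g1b, digestive enzymes or their partners, passed at 7 of 9, 3 of 3 and 1 of 10 probes. Islet endocrine genes, whose cells store zinc with insulin, had 1 of 8 past the threshold on each side, with a median of 0.13. These were Neurog3, at -0.73 ± 0.17 at 1 of its 2 probes, and Ins2, at 0.54 ± 0.23 at 1 of its 2 passing probes. The other Neurog3 probe was at -0.32 ± 0.33 and did not pass (limma adjusted p 0.164). The medians were 0.0032 for 6 erythroid genes, 0.07 for 6 mesenchyme genes, 0.18 for 4 neural genes and -0.06 for 5 leukocyte genes. In these lists, Sparc (-0.31), Ncam1 (-0.38 and -0.44) and C1qa (-0.40) passed under 0. Each gene that passed above 0 did so at 1 probe. Hba-a1, an adult globin, passed at 1 of 17 probes, at 0.40, with the others from -0.39 to 0.05. Tubb3, a neuronal tubulin, passed at 1 of 3 probes, at 0.39, with the others at 0.34 and -0.05. Elavl4, a neuronal RNA-binding protein, passed at 1 of 4 probes, at 0.90 (n = 4 arrays, 50% of values quotients), with the others from -0.02 to 0.65. The Cd53 probe, for a leukocyte surface protein, was at 0.71 (n = 5 arrays), with 80% of its values quotients of small whole numbers, and at 3.34 with the ceiling kept, where it did not pass. Among the genes named from all lists, Afp and Bnip3 passed in each fit with 1 array left out, and every other one passed in at most 2 of those 6 fits. The part of these cell types in the metallothionein ratios was not tested.

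**Figure D5:**
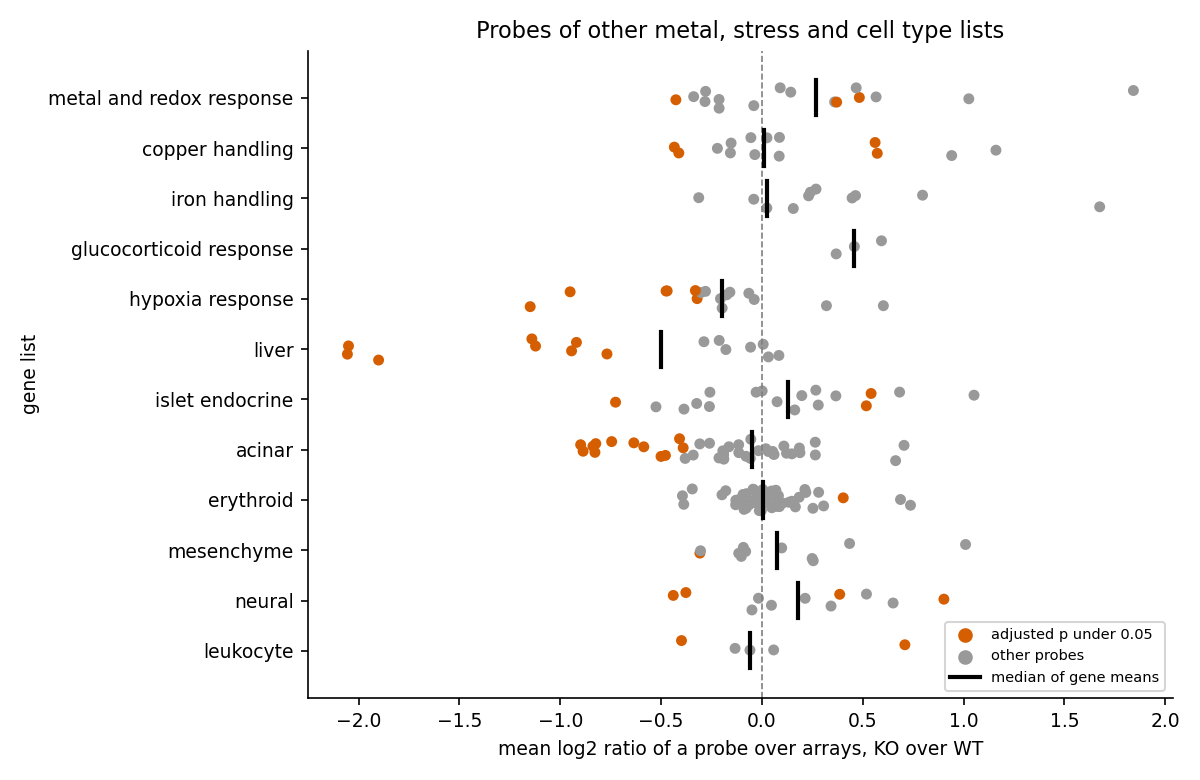
Mean log2 ratio (KO over WT) of each probe in 5 metal and stress lists and 7 cell type lists, with probes at a limma adjusted p under 0.05 in orange, other probes in grey and the median of gene means as a black bar. The liver list has the lowest median, at -0.50, and the glucocorticoid list, with 3 probes, the highest, at 0.46.

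The probes closest to the metallothioneins were found by the root mean square difference of array values over the 6 arrays. For Mt2, out of 15554 probes of other genes, the closest was that of Fabp4, a fatty acid carrier, at a difference of 0.13. Its array values were -1.18, -1.50, -1.40, -1.30, -1.31 and -1.36. It was followed by Serpina1e, a plasma protease inhibitor (0.20), Bnip3 (0.21), Fgg (0.29) and Pik3ap1, a signalling adaptor of immune cells (0.30). For the mean of the Mt1 probes, the closest of 15552 probes was one of Rps4x, a ribosomal protein (0.12), followed by probes of Clps (0.13), Bex4 (0.14), Lyve1, a marker of lymphatic vessels and some macrophages (0.14), and Spink1 (0.16). The Rps4x probe was at -0.81 ± 0.22, but the other Rps4x probes had means from -0.27 to 0.16. The likeness is a description over 6 arrays that may share RNA pools, and Mt1 and Mt2 had no gene in common among these. The Mt1 mean took in ZX-00135J15, at -0.40, so its level lay above the means of the other Mt1 probes, -1.05 and -1.01. The difference depends on level, so the lack of a shared gene is not read as a difference in pattern.

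The targeted gene did not check the labels: the 2 Sox4 probes were at -0.03 ± 0.25 and -0.09 ± 0.13 (SD, n = 6; limma adjusted p 0.892 and 0.446), and where they lie relative to the deleted part is not given. Arrays lacked values for 439 to 1654 probes, and 40 to 257 probes per array stood at the ceiling. Deposited medians ran from -0.007 to 0.20. The median absolute deviation after centring was 0.37 on array 2, the widest, and 0.18 to 0.30 on the others. Intensities were not used here, so signal over background is unknown, and the number of arrays limits the precision.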

How the data were processed

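The authors' deposited table gives 1 log2 ratio per probe and array, as the values show: the ceiling equals log2 of 1e+05. RNA was amplified linearly and labelled indirectly, per the labels' protocols of arrays 1 and 2. The sources used here do not state how spots were scanned, corrected and normalized, or which dye each RNA carried. The ceiling was set to missing and each array was centred on its median. Of 21888 probes, 18388 had 1 gene symbol, 66 several and 3434 none. Members were found by the platform's symbol. List genes used the RefSeq symbol found by Entrez ID, which 17786 probes had.

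Probes with at least 4 values were fitted with limma 3.58.1 in R 4.3.3 (lmFit and eBayes, intercept only, two-sided, Benjamini-Hochberg over all probes). Matplotlib 3.10.9 drew the figures. Quotients were of whole numbers up to 20, within 6e-04 in log2, on the deposited values. The probes of a gene were reported apart, except that list medians used gene means and the likeness to Mt1 used the mean of its probes. The members and lists were chosen with earlier results of these data known. Named were every member, Sox4, up to 4 genes past the threshold per list (or the one with the smallest p), the 5 genes nearest to Mt1 and to Mt2, and the genes in wells beside their probes. Mtf1, Alb, Vtn, Ttr, Hpx, Apoh, Amy2, Prss2, Cel, Rnase1, Tsc22d3 and Txn1 were named outside this rule, with their values seen. No listed probe of Mt3 or Mt4 was found, so that list has no result.

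The fit was tested on simulated normal data for 21247 probes. Changes of 0.5, 1 or 2 in log2 were recovered at 22.4%, 65.7% or 83.3% of 67, 67 or 66 probes, with 8 calls among unchanged probes and 0 when nothing changed. The simulated errors were independent between arrays, so error shared by arrays and channel bias were not covered. Alternatives were no centring, quantile normalization, other filters on missing values, the ceiling kept, array weights, robust eBayes, the label set as a term or taken alone (probes with all of that set's values), probes of mostly quotients (over 50%) left out, and each array left out.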

Additional observations from a re-analysis of the deposited data

Results flagged for a closer look

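For 48 probes named by the rule and 17 list or family medians, the gap of the highest or lowest array to its neighbour was set against the range over arrays. About 1 in 20 would be picked by chance, and 6 were found. The Mt1 probe ZX-00126D02 stood apart on array 2, at -0.26, where its other arrays gave -1.38 to -1.07. Array 3 stood apart for the Slc30a9 probe ZX-00131G19, at -0.31 beside 0.37 to 0.61 elsewhere, and for the Slc39a8 probe PX-00624C03, at -0.40 beside 0.39 to 0.55 elsewhere. For Fgb, probe ZX-00135H16 gave -0.60 on array 2 and -1.28 to -1.08 elsewhere. For Sparc, probe ZA-00026J22 gave -0.15 on array 1 and -0.36 to -0.30 elsewhere. The copper handling list had a median of 0.28 on array 2 and of -0.07 to 0.06 elsewhere.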

How the results depend on the processing

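The number of probes past the threshold, 1166, became 1789 with quantile normalization, 2752 with array weights, 695 with the label set as a term, 599 on arrays 3 to 6 alone and 0 on arrays 1 and 2 alone (2953 at an unadjusted limma p under 0.05). It ranged from 10 to 1072 when 1 array was left out. The 8 list genes past it became 13 with array weights, 5 with the label set as a term and 0 on arrays 1 and 2 alone, and ranged from 1 to 8 when 1 array was left out. The share of calls above 0, 35.7%, was 67.5% without centring and 72.6% with quantile normalization. The causes were not tested. The metallothionein means stayed within 1 SD in all 17 alternatives. With 1 array left out they ranged from -1.26 to -1.20 for Mt2, and from -1.15 to -0.96, -1.16 to -0.94 and -0.43 to -0.37 for the Mt1 probes. The Mt1 probe ZX-00135J15 lost its call without centring, with quantile normalization and on arrays 3 to 6 alone. Member probes past the threshold are given here with the share of all tested probes that passed. They were 6 in the fit reported (5.49%), 3 on arrays 3 to 6 alone (3.23%) and 4 with the set as a term (3.27%). On arrays 1 and 2 alone there were 0 (0.00%). There were 4 without centring (5.92%) and 4 with quantile normalization (8.42%). Among probes with all 6 values there were 7 (9.23%), without probes of mostly quotients 7 (8.63%) and with array weights 8 (13.0%). Nothing is read from these counts. With the ceiling kept, the Slc39a8 probe PX-00624C03 was at 3.50. Each array holds both RNAs, so the ratio itself compares them within the array. All arrays form 1 group, and no further pairing was used.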
